A study of Mus musculus with 8 samples.

Results

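The CXCR3 and CXCR6 chemokine axes are made up here of 6 mouse genes: Cxcl9, Cxcl10 and Cxcl11 with their shared receptor Cxcr3, and Cxcl16 with its receptor Cxcr6. Every array probe that carries the name of one of these genes was taken, which gave 7 of the 45281 probes and covered 5 of the 6 genes. Cxcl11 had no named probe and is not analysed here. Of the 7 probes, 6 were detected on at least 4 of the 8 arrays and entered the comparison with 19462 probes in all.

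RNA came from whole tumor-draining lymph nodes of 8 mice with subcutaneous B16 melanoma, a mouse tumor line. In the first group, 4 mice had received 1 intratumoral injection of 3M-052, an agonist of TLR-7 and TLR-8 made for slow release at the injection site, when the tumor measured 30 to 40 mm2. In the second group, 4 mice had received the vehicle alone at the same tumor size. Nodes of both groups were removed 4 days later, and each array holds the node of a separate mouse, so that both groups carried the tumor and the injection and differed in the drug. The labels name no strain, allele, age or dose for the arrays, and the study's general methods give young adult female C57BL/6 mice. The labels once name tumors as the source of the RNA where they otherwise name lymph nodes. The comparison asks which genes of both axes differed in the draining node after local delivery of the agonist.

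Chemokines are small secreted proteins that draw cells bearing the matching receptor along a gradient. CXCL9, CXCL10 and CXCL11 are made by dendritic cells, macrophages and stromal cells under interferon and bind CXCR3, which activated type 1 helper T cells, CD8 T cells and NK cells carry and which in lymph nodes helps to bring T cells to antigen-presenting cells. CXCL16 differs from them in being made as a membrane protein of dendritic cells and macrophages, from which ADAM10 and ADAM17 cut a soluble form, and its receptor CXCR6 marks activated and tissue-dwelling T cells, NKT cells and innate lymphoid cells. C57BL/6 mice are known to carry a Cxcl11 gene that yields no protein, and the RefSeq table lists it as a transcribed pseudogene.

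Cxcl9 and Cxcl10 lie close together on chromosome 5 and are both read from the minus strand. Their promoters are shown because the results below turn on how far this pair differed on the same arrays. The 250 bases before each gene start follow from RefSeq (GRCm38.p6, Cxcl9 at chr5:92328080-92328329 and Cxcl10 at chr5:92348890-92349139, both 5′ to 3′ on the minus strand). Capitals mark matches to 2 motifs, the interferon-stimulated response element (ISRE, a pair of GAAA with 2 free bases between them) and the κB consensus, and an 11-base run around a CCAAT box that both promoters hold.
Cxcl9: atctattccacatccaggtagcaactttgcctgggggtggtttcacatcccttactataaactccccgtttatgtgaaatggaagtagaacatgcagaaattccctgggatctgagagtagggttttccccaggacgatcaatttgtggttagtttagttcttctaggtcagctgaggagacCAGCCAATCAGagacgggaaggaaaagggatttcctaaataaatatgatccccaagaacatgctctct
Cxcl10: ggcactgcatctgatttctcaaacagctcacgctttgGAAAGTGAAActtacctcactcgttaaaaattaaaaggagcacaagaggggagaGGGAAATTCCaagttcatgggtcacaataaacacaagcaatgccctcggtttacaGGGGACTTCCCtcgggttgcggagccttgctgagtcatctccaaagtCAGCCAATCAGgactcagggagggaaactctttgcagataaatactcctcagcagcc
The Cxcl10 window held 1 match to the ISRE, from 213 to 204 bases before the start, and 3 matches to the κB consensus, of which 2 overlap each other by all but 1 base. The Cxcl9 window held 0 matches to either motif, and neither window matched the gamma-activated sequence (GAS, TTCNNNGAA). Both strands were searched, and no match to one motif overlapped a match to another. Of 32851 mouse promoters of this length, 2.98% held an ISRE match, 7.25% a κB match and 7.02% a GAS match. The shared run CAGCCAATCAG began 68 bases before the start of Cxcl9 and 57 bases before that of Cxcl10, and 0.755% of promoters held it. A match is a description of the letters in these windows and no measure of binding. Promoters of Cxcr3 and Cxcr6 were also in the table and held 0 matches to the ISRE, κB and GAS patterns, so that 4 of the 6 genes were matched in all.

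The arrays were broadly alike in depth of detection but not in brightness. Between 17817 and 19773 probes were detected in 3M-052 nodes and between 19094 and 20315 in vehicle nodes, where detected means a detection p-value under 0.05 against negative control beads. Before normalization the mean intensity was 331 in 3M-052 node 4 and 306 in vehicle node 4, against 398 to 461 in the others. B and T cell transcripts were abundant in every node, as is usual for a lymph node. The mean log2 intensity of 5 B cell markers ran from 9.89 to 10.2 in 3M-052 nodes and from 9.98 to 10.3 in vehicle nodes. Some nodes stood apart in transcripts of other tissues. The mean of 7 fat cell markers was 7.36, 8.20, 5.75 and 8.14 in 3M-052 nodes and 9.31, 10.2, 10.4 and 6.79 in vehicle nodes 1 to 4, so that vehicle nodes 1 to 3 were above all others. The mean of 4 melanocyte markers was 4.84 to 5.84 in 3M-052 nodes and 6.14, 5.64, 9.84 and 5.36 in vehicle nodes 1 to 4, so that vehicle node 3 stood alone. Of these lists, 0 of 7 and 0 of 4 genes passed the test (limma). Plasma cell markers were higher, in 5 of 6 tested genes, with list means of 9.06 to 9.72 in 3M-052 nodes and 7.97 to 8.43 in vehicle nodes. Red cell markers were lower, in 2 of 2 genes, with list means of 7.73 to 8.55 in 3M-052 nodes and 9.41 to 9.81 in vehicle nodes. Of 8 endothelial markers 3 were lower, among them Glycam1 (log2 fold change -1.16) and Chst4 (-1.30). Both are known from the high endothelial venules through which lymphocytes enter a node. The list was mixed: 5 of the 8 log2 fold changes were negative and 3 positive. In a fit that blocks on replicate number 4 were lower and 1 higher. The list means overlapped, at 8.07 to 8.73 in 3M-052 nodes and 8.51 to 8.95 in vehicle nodes. The part of these tissues in the results below was not tested. Values with the fat markers as a covariate and without single nodes therefore stand beside the results they change. In whole nodes, fewer cells of a type and less RNA per cell cannot be told apart.

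Across the CXCR3 and CXCR6 axes, 1 of the 6 tested probes was higher in 3M-052 nodes, that of Cxcl10, and 1 was lower, a probe of Cxcl16. Among all 19462 tested probes, 5.1% were called in either direction, 2.81% higher and 2.29% lower, at an adjusted p under 0.05 (limma with Benjamini-Hochberg adjustment, used for every adjusted p below unless another test is named). Values of 3M-052 and vehicle nodes did not overlap for 4 of the 6 probes, 2 higher and 2 lower, where 12.7% of all tested probes had groups that did not overlap, 5.57% higher and 7.1% lower. The median log2 difference of the 6 probes was -0.19, and that of all tested probes was -0.0098. With so few probes these counts only describe the members.

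**Figure D1:**
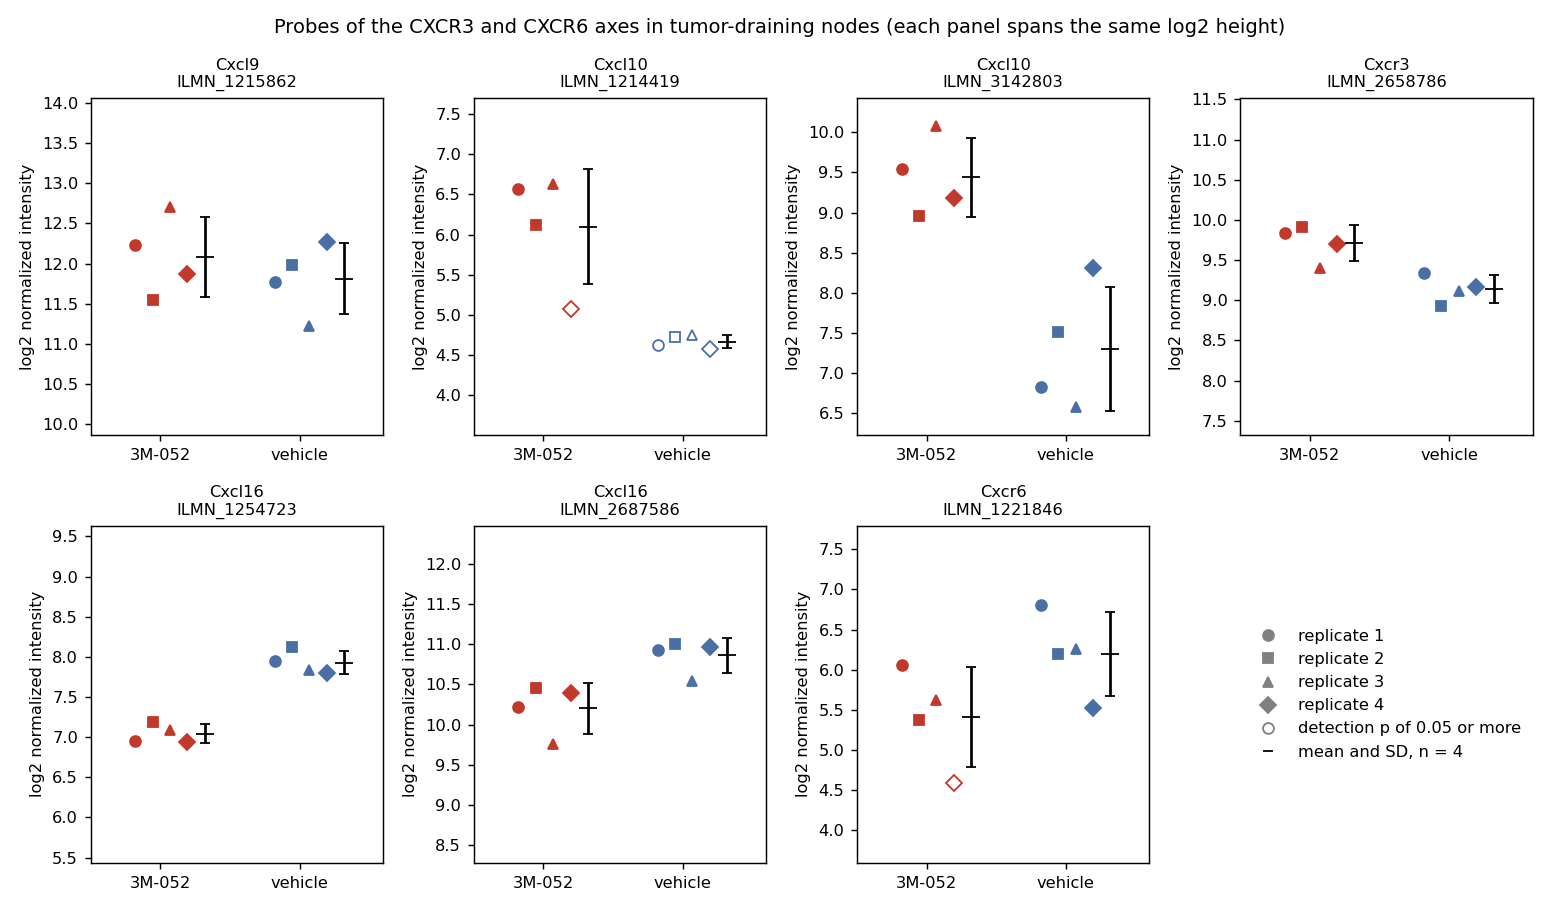
Log2 normalized intensity of the 7 named probes in each node, with 3M-052 on the left and vehicle on the right of every panel, symbols for replicate numbers and bars for the mean and SD (n = 4). The Cxcl10 probe ILMN_3142803 lies between 8.96 and 10.08 in 3M-052 nodes and between 6.58 and 8.31 in vehicle nodes, while the groups of Cxcl9 overlap.

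Cxcl10, the ligand of CXCR3 that interferons of both types and NF-κB induce, was 4.39-fold higher in 3M-052 nodes. Its probe ILMN_3142803 read 9.55, 8.96, 10.08 and 9.18 on the log2 scale in 3M-052 nodes 1 to 4, and 6.83, 7.51, 6.58 and 8.31 in vehicle nodes 1 to 4. The lowest 3M-052 node was above the highest vehicle node by 0.65, and vehicle node 4 was the highest of its group. Means were 9.44 ± 0.49 in 3M-052 nodes and 7.31 ± 0.77 in vehicle nodes (SD, n = 4 each), a log2 fold change of 2.13 with a standard error (SE) of 0.36 and an adjusted p of 0.0065. The 95% interval of the fold ran from 2.54 to 7.59, and an exact two-sided permutation test gave p = 0.029, the smallest that 4 against 4 nodes allow. Before normalization the intensities lay between 441 and 1396 in 3M-052 nodes and between 150 and 256 in vehicle nodes, so that the groups were also apart in the scanner values.

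A second Cxcl10 probe, ILMN_1214419, was dim and did not enter the test. It was detected in 3 of 4 3M-052 nodes and in 0 of 4 vehicle nodes. Its log2 values were 6.56, 6.12, 6.63 and 5.08 in 3M-052 nodes, the last of them not detected, and 4.62, 4.72, 4.75 and 4.57 in vehicle nodes. The probe was not well above background in any vehicle node. Set against the lowest detected signal of those arrays (mean 4.99 on the log2 scale), the 3M-052 mean of 6.10 was 2.15-fold higher. That mean includes the 3M-052 node that was not detected, so the fold is a point estimate and no firm lower bound. Without the filter on dim probes its log2 difference of 1.43 had an adjusted p of 0.039. Both Cxcl10 probes thus read higher in 3M-052 nodes.

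The Cxcl10 call held when each node was left out in turn, with log2 fold changes of 1.90 to 2.46 and adjusted p values of 0.00073 to 0.034, including 0.018 without vehicle node 3. It was lost with the fat cell markers as a covariate (log2 fold change 1.43, adjusted p = 0.051) and with the methods' t-test after adjustment (adjusted p = 0.094).

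Cxcl9, the CXCR3 ligand induced chiefly by interferon gamma, showed no such separation. Its probe ILMN_1215862 was detected on all 8 arrays and read 12.23, 11.54, 12.70 and 11.87 in 3M-052 nodes and 11.77, 11.98, 11.23 and 12.28 in vehicle nodes. Each group had nodes above and below nodes of the other, with 3M-052 node 3 highest and vehicle node 3 lowest. Means were 12.09 ± 0.50 in 3M-052 nodes and 11.81 ± 0.44 in vehicle nodes (SD, n = 4 each), a log2 fold change of 0.27 with an SE of 0.26 (adjusted p = 0.62, exact permutation p = 0.46). The 95% interval of the fold reached from 0.81 to 1.80, so that its upper bound lay below the lower bound of 2.54 for Cxcl10. With the fat cell markers as a covariate its log2 fold change was -0.21 (adjusted p = 0.84).

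The readings of Cxcl9 and Cxcl10 were also compared with each other on the same arrays. The log2 value of Cxcl9 minus that of Cxcl10 was 2.68, 2.59, 2.63 and 2.69 in 3M-052 nodes and 4.94, 4.47, 4.65 and 3.97 in vehicle nodes. All 4 3M-052 nodes were below every vehicle node, and the spread among them was small (SD 0.050 in 3M-052 nodes and 0.41 in vehicle nodes). The mean difference was lower in 3M-052 nodes (by -1.86 on the log2 scale, exact permutation p = 0.029, the smallest that 4 against 4 allow, and 0.061 after adjustment over the 15 pairs of member probes). Within each group, nodes fell in one order for both genes: from high to low, 3, 1, 4 and 2 among 3M-052 nodes, and 4, 2, 1 and 3 among vehicle nodes. That order is a description of 4 nodes a group and was not tested. Distances between different probes depend on how each binds, so only their change between groups is read here.

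**Figure D2:**
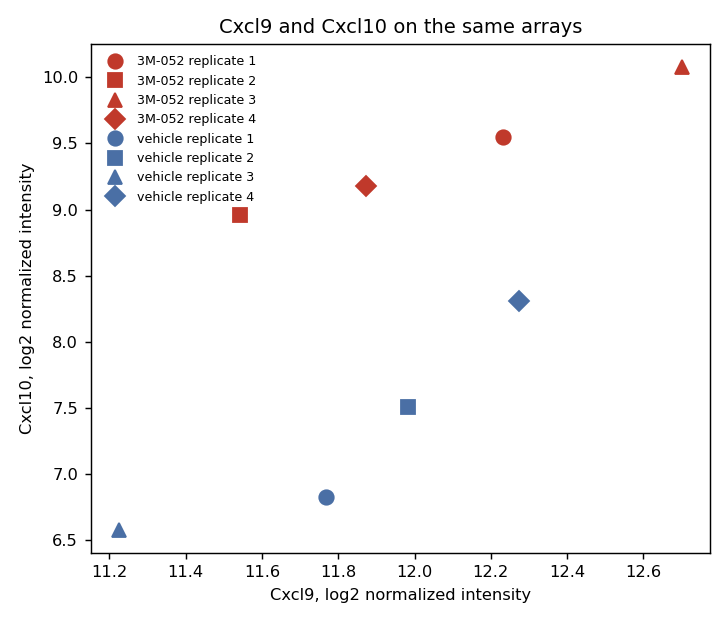
Cxcl10 (vertical axis) against Cxcl9 (horizontal axis), both as log2 normalized intensity, with red for 3M-052 nodes, blue for vehicle nodes and symbols for replicate numbers. Within each group the points run upward, and the 3M-052 nodes lie above the vehicle nodes at like Cxcl9 values.

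Cxcr3, the receptor of these ligands, read higher in every 3M-052 node than in any vehicle node, but by a small margin. Its probe ILMN_2658786 gave 9.84, 9.91, 9.40 and 9.70 in 3M-052 nodes and 9.34, 8.93, 9.11 and 9.17 in vehicle nodes on the log2 scale. The lowest 3M-052 node, number 3, was above the highest vehicle node, number 1, by 0.054. Means were 9.71 ± 0.23 in 3M-052 nodes and 9.14 ± 0.17 in vehicle nodes (SD, n = 4 each), a log2 fold change of 0.57 with an SE of 0.16 (1.49-fold, 95% interval 1.16 to 1.90). The adjusted p of 0.070 missed the threshold, while the exact permutation p was 0.029. In a fit that blocks on replicate number the adjusted p was 0.028, and the call was also made with median centering (0.044), with array weights (0.031) and without 3M-052 node 3 (0.030).

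T cell markers were lower in the same nodes. Of 13 tested T cell marker genes, 7 were lower in 3M-052 nodes and 0 higher, with a median log2 difference of -0.78, and 10 were lower in a fit that blocks on replicate number. Among them the CD3 chain gene Cd3e differed by -0.89 (adjusted p = 0.0031) and Thy1, which encodes a surface protein of T cells, by -0.92 on the log2 scale (adjusted p = 0.0047). The mean of the list ran from 10.12 to 10.48 in 3M-052 nodes and from 10.84 to 11.23 in vehicle nodes, and the log2 of its summed level from 14.7 to 15.1 in 3M-052 nodes and from 15.6 to 15.9 in vehicle nodes. Markers of NK cells, also known to carry CXCR3, had means of 8.43 to 8.95 in 3M-052 nodes and 8.33 to 8.89 in vehicle nodes. Of these markers, 0 of 4 tested genes were called. In the fit that blocks on replicate number 1 of the 4 was higher, Klre1 (0.71, adjusted p = 0.025), and 1 lower, Klrd1 (-0.48, adjusted p = 0.025), both receptor genes of NK cells.

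Set against the T cell markers of its own array, Cxcr3 was apart in all nodes. The log2 value of Cxcr3 minus the mean of the 13 markers was -0.65, -0.50, -0.72 and -0.53 in 3M-052 nodes and -1.89, -1.96, -1.81 and -1.68 in vehicle nodes. The difference was 1.24 higher in 3M-052 nodes, with an SD of 0.10 in 3M-052 nodes and 0.12 in vehicle nodes (exact permutation p = 0.029, and 0.043 after adjustment over the 6 such tests). Cxcr3 alone was already higher, and the marker mean lower, in every 3M-052 node than in any vehicle node. The permutation p of their difference was therefore fixed in advance and is no further test of Cxcr3. The difference holds the Cxcr3 reading and the T cell readings in 1 value, and it is no measure of Cxcr3 per T cell. Which cells carried the Cxcr3 RNA was not measured, and plasma cell markers were higher in the same nodes (5 of 6 tested genes). The part of node makeup in the difference was not tested.

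**Figure D3:**
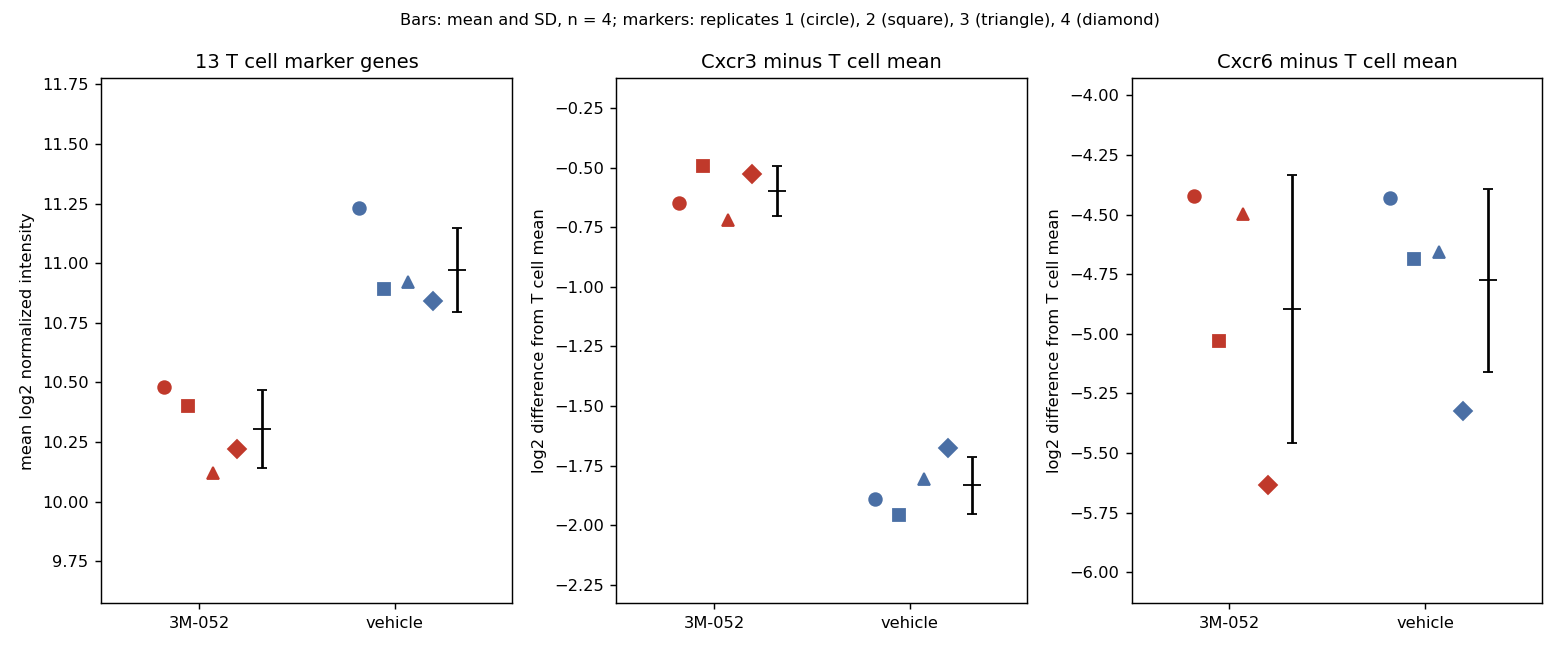
Mean log2 intensity of 13 T cell marker genes (left), and the log2 value of Cxcr3 (middle) and Cxcr6 (right) minus that mean, for each node with 3M-052 left of vehicle and bars for the mean and SD (n = 4). The Cxcr3 difference separates the groups, at -0.72 to -0.50 in 3M-052 nodes and -1.96 to -1.68 in vehicle nodes, and the Cxcr6 difference does not.

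Cxcl16, the membrane-bound ligand of CXCR6, read lower in 3M-052 nodes with both of its probes. Probe ILMN_1254723 gave 6.95, 7.19, 7.09 and 6.94 in 3M-052 nodes and 7.95, 8.13, 7.84 and 7.80 in vehicle nodes on the log2 scale. All 3M-052 nodes were below all vehicle nodes with a gap of 0.61. Means were 7.04 ± 0.12 in 3M-052 nodes and 7.93 ± 0.15 in vehicle nodes (SD, n = 4 each), a log2 fold change of -0.89 with an SE of 0.17 and an adjusted p of 0.013 (exact permutation p = 0.029). The probe was thus 1.85-fold lower in 3M-052 nodes, with a 95% interval of 1.43 to 2.39.

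The other Cxcl16 probe, ILMN_2687586, gave 10.22, 10.46, 9.75 and 10.39 in 3M-052 nodes and 10.93, 11.00, 10.54 and 10.97 in vehicle nodes. Node 3 was the lowest of both groups, and the groups were apart by 0.086. Means were 10.21 ± 0.32 in 3M-052 nodes and 10.86 ± 0.21 in vehicle nodes (SD, n = 4 each), a log2 fold change of -0.66 with an SE of 0.18. This probe missed the threshold (adjusted p = 0.062, exact permutation p = 0.029) and passed it in the fit that blocks on replicate number (adjusted p = 0.0056) and, by a narrow margin, without 3M-052 node 2 (adjusted p = 0.0496). The change of one Cxcl16 probe minus that of the other was -0.23 on the log2 scale (exact permutation p = 0.29, 0.36 after adjustment over 15 pairs).

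The call of the first Cxcl16 probe was lost without vehicle node 1 (adjusted p = 0.057), without vehicle node 2 (0.065) and with the fat cell markers as a covariate (log2 fold change -0.83, adjusted p = 0.15), and held without vehicle node 3 (0.035). Its log2 fold change stayed between -0.94 and -0.66 in the 20 alternative settings tried.

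Markers of the cells known to make CXCL16 did not all fall with it. Of 7 tested dendritic cell markers, 2 were lower in 3M-052 nodes and 0 higher: Fscn1, an actin-bundling protein of mature dendritic cells, had a log2 fold change of -1.49 (adjusted p = 0.00077) and Siglech, a receptor of plasmacytoid dendritic cells, one of -1.44 (adjusted p = 0.031). With the replicate block 4 of the 7 were lower. The mean of that list was 7.12 to 7.68 in 3M-052 nodes and 7.91 to 8.29 in vehicle nodes, and the log2 of its summed level 10.9 to 11.1 in 3M-052 nodes and 11.9 to 12.3 in vehicle nodes. Of 7 tested monocyte and macrophage markers, 1 was higher and 0 lower, with a median log2 difference of 0.085 and list means of 8.72 to 9.21 in 3M-052 nodes and 8.42 to 8.83 in vehicle nodes. The 1 that rose was Fcgr1, the high-affinity IgG receptor (log2 fold change 1.96, adjusted p = 0.00089). The part of these cells in the Cxcl16 values was not tested.

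Relative to the monocyte and macrophage markers of its own array, Cxcl16 differed by -1.25 with the first probe and by -1.02 with the other on the log2 scale between 3M-052 and vehicle nodes (exact permutation p = 0.029 for each, 0.043 after adjustment over 6 tests). Both probes were already lower in every 3M-052 node than in any vehicle node. For the first probe the marker means overlapped by less than its gap, so its permutation p was fixed in advance. Neither p-value is a further test of Cxcl16. Against the same markers the difference was 1.77 for Cxcl10 (exact permutation p = 0.029, 0.043 adjusted) and -0.092 for Cxcl9 (p = 0.86). For Cxcl10 the permutation p was 0.057 when any 3M-052 node or vehicle node 1 or 3 was left out. These values turn on the marker list, as comparisons chosen after seeing the data showed. Relative to the 7 dendritic cell markers, which were lower themselves, Cxcl16 differed by -0.19 with the first probe (exact permutation p = 0.29). With the other probe it differed by 0.041 (exact permutation p = 0.69), so that Cxcl16 was not shown to differ from those markers. Cxcl9 differed from them by 0.97 (exact permutation p = 0.086) and Cxcl10 by 2.83 (exact permutation p = 0.029). That Cxcl10 p-value was fixed in advance, as Cxcl10 was higher and the dendritic cell mean lower in every 3M-052 node than in any vehicle node. Relative to the monocyte and macrophage markers without Fcgr1, Cxcl16 differed by -0.99 and -0.76 and Cxcl10 by 2.03 (exact permutation p = 0.029 for each), and Cxcl9 by 0.17 (p = 0.71).

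Cxcr6, the receptor of CXCL16, was dim in these nodes and its groups overlapped. Its probe ILMN_1221846 read 6.06, 5.37, 5.62 and 4.59 in 3M-052 nodes and 6.80, 6.20, 6.26 and 5.52 in vehicle nodes on the log2 scale, and the value of 4.59 in 3M-052 node 4 was not detected. Means were 5.41 ± 0.62 in 3M-052 nodes and 6.20 ± 0.52 in vehicle nodes (SD, n = 4 each), a log2 fold change of -0.79 with an SE of 0.34 (adjusted p = 0.21, exact permutation p = 0.086). From high to low, nodes fell in the order 1, 3, 2 and 4 in both groups, and each 3M-052 node was below the vehicle node of its number, with log2 differences of -0.74, -0.83, -0.64 and -0.93 for numbers 1 to 4. In the fit that blocks on replicate number the SE was 0.16 and the adjusted p 0.013. Minus the T cell markers the difference of Cxcr6 between groups was -0.12 (exact permutation p = 0.71), with values of -5.64 to -4.42 in 3M-052 nodes and -5.32 to -4.43 in vehicle nodes.

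Unequal change was also tested between members of both axes. Of the 15 pairs of member probes, 7 had a difference in change with an exact permutation p of 0.029, the smallest possible. After adjustment over the pairs 0 were under 0.05 (0.061). Pairs of Cxcl10 or Cxcr3 with a Cxcl16 probe had to reach 0.029 and are no further test. Cxcl10 and Cxcr3 were each higher, and both Cxcl16 probes lower, in every 3M-052 node than in any vehicle node. The log2 fold change of Cxcr3 exceeded that of Cxcr6 by 1.36 and those of the 2 Cxcl16 probes by 1.46 and 1.23. That of Cxcl10 exceeded those of the Cxcl16 probes by 3.02 and 2.79, that of Cxcr6 by 2.92 and that of Cxcr3 by 1.56, the last with an exact permutation p of 0.057 (0.086 adjusted). With 4 against 4 nodes no pair could pass after adjustment unless at least 9 of them reached 0.029, so the adjusted p says little here. Without vehicle node 4, 9 pairs passed after adjustment, each at 0.048.

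In the fit that blocks on replicate number, 5 of the 6 member probes passed the threshold, all but that of Cxcl9, where 14% of all tested probes did.

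**Figure D4:**
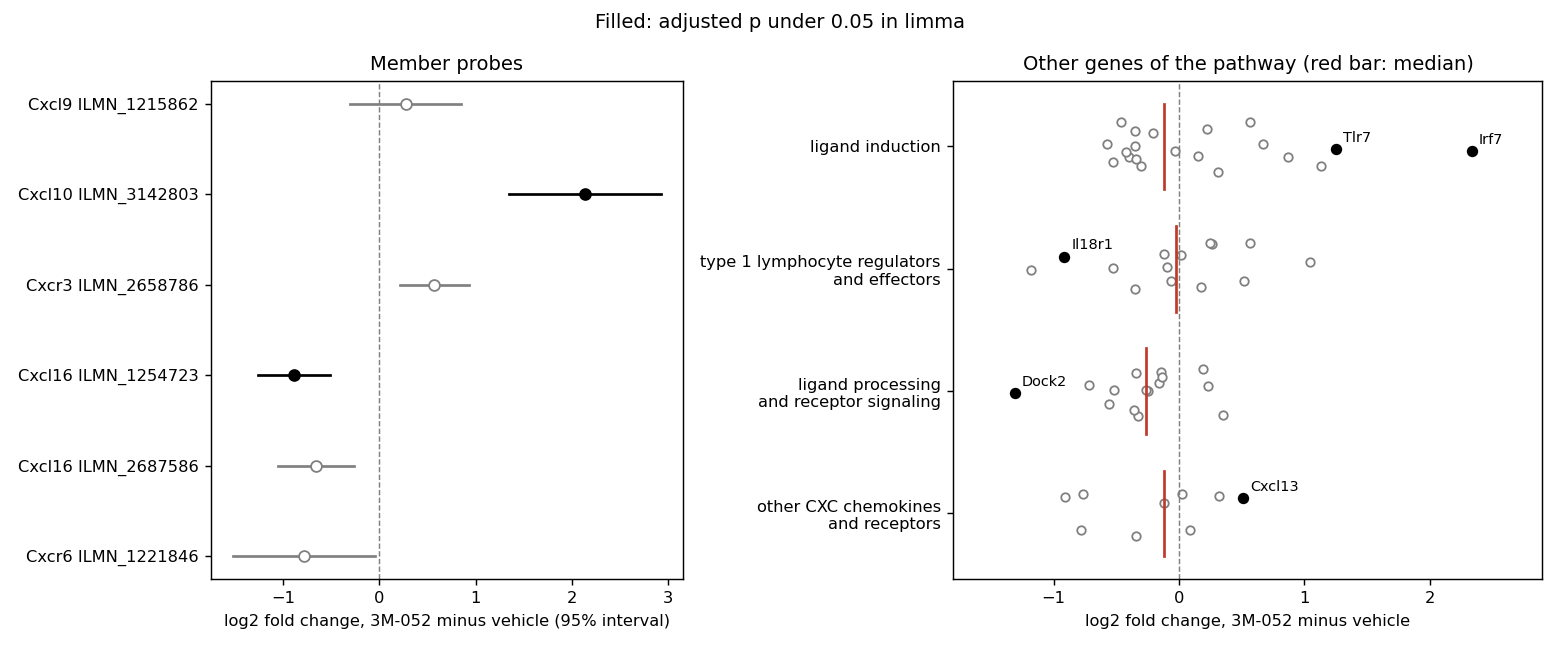
Left, log2 fold change (3M-052 minus vehicle) of the 6 tested member probes with 95% intervals. Right, the same quantity for 57 other genes of the pathway in 4 lists, with the list median as a red bar. Filled points passed an adjusted p of 0.05, among them Cxcl10 at 2.13, Cxcl16 at -0.89 and Irf7 at 2.33.

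Genes that control the ligands upstream were described by a list of 23 interferon, NF-κB and TLR-7 pathway genes, of which 20 had a tested probe. In 3M-052 nodes 2 of them rose, 0 fell and 18 did not pass, with a median log2 difference of -0.12. Over all 10543 named genes 2.44% were higher and 2.27% lower, and the median was -0.031. Irf7, the transcription factor that amplifies type I interferon, read 10.21, 10.04, 10.59 and 10.09 in 3M-052 nodes and 7.58, 8.19, 7.72 and 8.10 in vehicle nodes. It rose by 2.33 on the log2 scale (SE 0.19, adjusted p = 0.00012) and passed in every one of 20 alternative settings. Tlr7, which encodes one of the receptors of 3M-052, read 9.67, 10.19, 10.42 and 10.02 in 3M-052 nodes and 8.81, 9.07, 8.59 and 8.83 in vehicle nodes. It rose by 1.25 on the log2 scale (SE 0.18, adjusted p = 0.0029), and missed the threshold only with the fat cell covariate (0.051).

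Of the interferon gamma signaling genes, Ifng, Ifngr1, Ifngr2, Jak2 and Irf1 were not called with their brightest probe. Ifng itself, the chief inducer of Cxcl9, had a log2 fold change of 0.56 (SE 0.40, adjusted p = 0.47), its receptor chain Ifngr1 one of -0.31 (adjusted p = 0.24), the other chain Ifngr2 one of -0.47 (adjusted p = 0.31, 0.042 with the replicate block), the kinase Jak2 one of -0.57 (adjusted p = 0.18) and Irf1, a transcription factor downstream of interferon gamma, one of -0.40 (adjusted p = 0.18). Stat2, which carries the signal of type I interferon, had groups that did not overlap and a log2 fold change of 0.87 (adjusted p = 0.051, 0.012 with the replicate block). Irf8 had a log2 fold change of 0.67 (adjusted p = 0.25, 0.015 with the replicate block), and Tnf one of 1.13 (adjusted p = 0.093, 0.051 with the block). Tnfrsf1b went the other way, at -0.53 (adjusted p = 0.13, 0.0415 with the block). The Ifng probe was dim, with means of 5.96 in 3M-052 nodes and 5.40 in vehicle nodes, and was detected in only 3 vehicle nodes. These genes without a call were named after their values were seen. The probes of Jak1 disagreed, at -0.21 with the brightest (adjusted p = 0.88) and -1.23 with another (adjusted p = 0.036). With the replicate block 4 genes of the list were higher and 2 lower.

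Regulators and effectors of type 1 lymphocytes, which are among the cells that use CXCR3 and CXCR6, were mostly not called. Of 18 listed genes 14 were tested, 0 rose and 1 fell, with a median of -0.025. The 1 that fell was Il18r1, a chain of the interleukin 18 receptor, which read 7.96, 7.90, 7.01 and 7.66 in 3M-052 nodes and 8.53, 8.42, 8.61 and 8.64 in vehicle nodes. On the log2 scale it differed by -0.92 (SE 0.22, adjusted p = 0.036), the call was lost without 3M-052 node 1 or 4 or any one vehicle node and with the fat cell covariate (-0.77, adjusted p = 0.34), and its dimmer probe gave -0.43 (adjusted p = 0.24). Tbx21, which encodes T-bet, the factor that drives Cxcr3 transcription in T cells, was named after its values were seen: its groups did not overlap and its log2 fold change was 1.05 (SE 0.30, adjusted p = 0.069, 0.010 with the replicate block). The part of Tbx21 in the Cxcr3 values was not tested. With the block 1 gene of the list was higher, Tbx21, and 3 were lower, Il18r1, Id2 and Prf1. Id2 had a log2 fold change of -1.18 (adjusted p = 0.13, 0.0034 with the block), and its dimmer probes gave -0.29 and -0.084. Prf1 had one of -0.53 (adjusted p = 0.13, 0.025 with the block). Id2 and Prf1 were also named after their values were seen.

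Genes that trim the ligands or carry the receptors' signal numbered 19, of which 15 were tested. In 3M-052 nodes 0 rose and 1 fell, with a median of -0.26. That gene was Dock2, which activates Rac in lymphocytes that migrate toward chemokines, at 6.13, 7.62, 6.35 and 6.39 in 3M-052 nodes and 8.02, 8.29, 7.95 and 7.48 in vehicle nodes. Its log2 fold change was -1.31 (SE 0.32, adjusted p = 0.037), and 3M-052 node 2 overlapped the vehicle nodes. The call was lost without 3M-052 node 1, 3 or 4 or vehicle node 1, 2 or 3. It was also lost with the fat cell covariate (-0.93, adjusted p = 0.38) and with the methods' t-test (adjusted p = 0.15). Adam17, one of the proteases that release CXCL16, had a log2 fold change of 0.19 (adjusted p = 0.51), and Dpp4, the peptidase that trims CXCL10, one of 0.35 (adjusted p = 0.31). Both were named after their values were seen. With the block 0 genes of the list were higher and 4 lower.

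Among 15 other CXC chemokines and receptors, 9 were tested, 1 rose and 0 fell, with a median of -0.12. The 1 that rose was Cxcl13, the B cell chemokine, at 12.88, 12.91, 12.96 and 12.71 in 3M-052 nodes and 12.13, 12.31, 12.35 and 12.62 in vehicle nodes. Its log2 fold change was 0.51 (SE 0.13, adjusted p = 0.046), and leaving out any node but vehicle node 4 ended the call. The call was also lost with the fat cell covariate (0.37, adjusted p = 0.45) and with the methods' t-test (adjusted p = 0.10). It was lost as well without the filter on dim probes (adjusted p = 0.098) and without the variance trend in limma (adjusted p = 0.10). Named after their values were seen, the neutrophil chemokine Cxcl1 had a log2 fold change of 0.32 (adjusted p = 0.74) and the stromal chemokine Cxcl12 one of -0.12 (adjusted p = 0.83).

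The genes nearest to the 2 called members were found by the root mean square difference of log2 values over the 8 arrays, each probe centred on its own mean. For Cxcl10 they were Mx2 (0.304), Oas1g (0.310), Oasl1 (0.318), Oas2 (0.330) and Isg15 (0.332), all known as interferon-stimulated genes with antiviral roles, against a median of 1.24 over 16413 named probes. Their log2 fold changes lay between 1.99 and 2.37. For the called Cxcl16 probe they were Tet1 (0.0649), Il6ra (0.0963), Nt5e (0.102), Dgka (0.111) and Plekha5 (0.120), against a median of 0.535, with log2 fold changes between -0.91 and -0.82. Of the 3 genes like Cxcl10 that the promoter table holds, Isg15 had 3 and Oas1g 2 matches to the ISRE and 0 to the κB consensus. Oasl1 had 0 to the ISRE and 2 to the κB consensus. The 5 genes like Cxcl16 had 0 matches to either motif. As 2.98% of all promoters held an ISRE match and 7.25% a κB match, 0 matches is the usual count for a gene. The difference between groups enters this measure, and it says nothing of shared control.

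Genes beside the members on the chromosome were looked at after the member values were seen. Art3, which lies between Cxcl9 and Cxcl10 and overlaps Cxcl10 in the annotation, had a log2 fold change of -0.87 (adjusted p = 0.16), while Sdad1 and Nup54 on either side of the cluster had 0.26 (adjusted p = 0.37) and 0.75 (adjusted p = 0.27). Zmynd15, which overlaps Cxcl16 in the annotation, was lower in 3M-052 nodes with its brightest probe (log2 fold change -1.17, adjusted p = 0.020) and had -0.97 with the other (adjusted p = 0.085). Probe sequences were not used here, and whether the probes of overlapping genes measure one transcript was not tested.

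**Figure D5:**
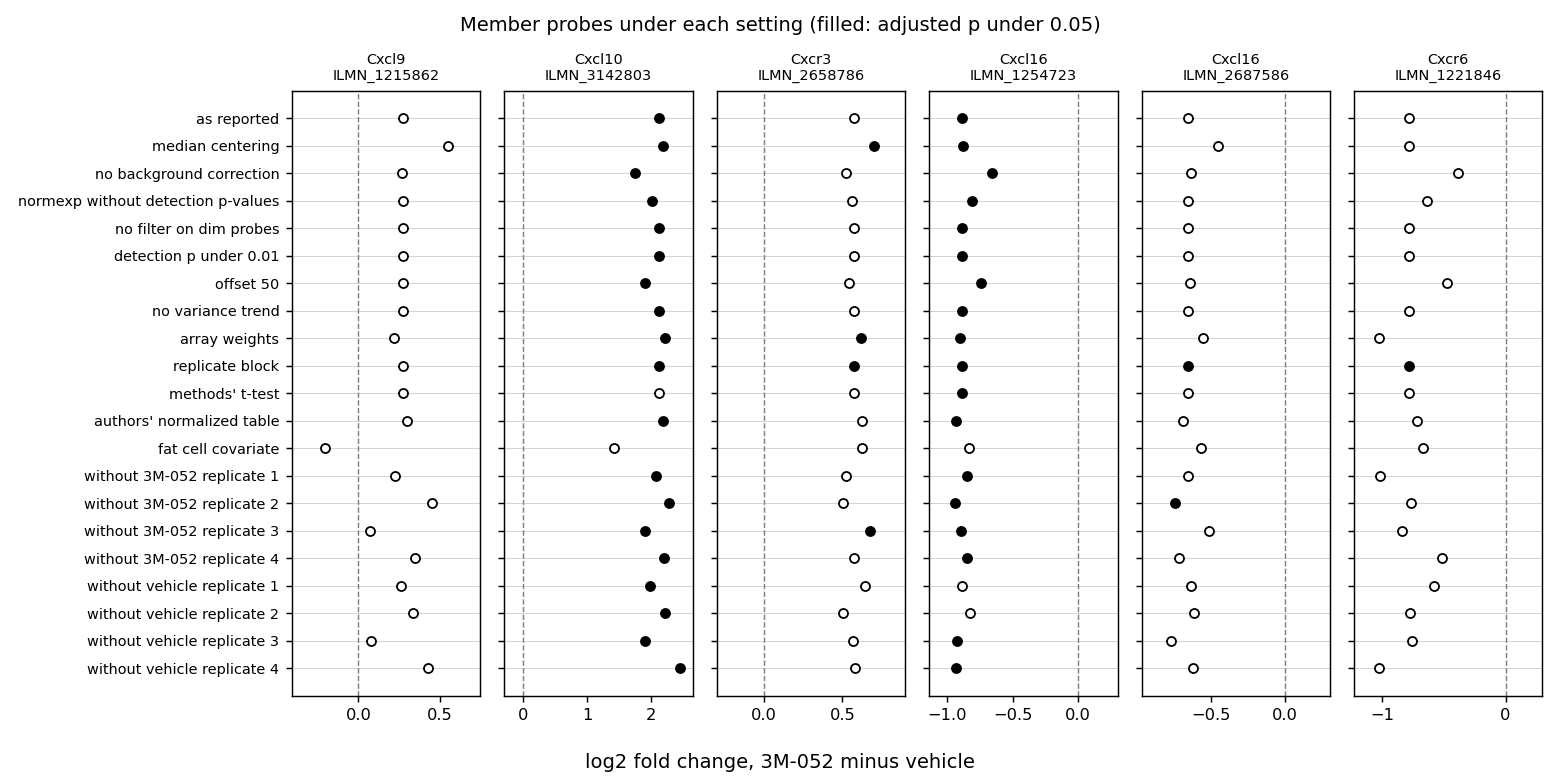
Log2 fold change (3M-052 minus vehicle) of each member probe as reported and under 20 alternative settings, filled where the adjusted p was under 0.05. Cxcl10 lies between 1.43 and 2.46 and Cxcr6 between -1.03 and -0.39, and Cxcl9 alone crosses 0, with the fat cell covariate at -0.21.

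All member probes but that of Cxcl9 kept one sign in the 20 settings. Cxcl10 passed in 18 of them, the first Cxcl16 probe in 17, Cxcr3 in 4, the other Cxcl16 probe in 2, Cxcr6 in 1 and Cxcl9 in 0. The authors' own normalized table gave log2 fold changes of 2.19 for Cxcl10, 0.30 for Cxcl9, 0.62 for Cxcr3, -0.93 and -0.68 for Cxcl16 and -0.72 for Cxcr6.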

How the data were processed

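RNA of 8 lymph nodes was amplified in 2 rounds and hybridized by the authors to Illumina mouse bead arrays. Deposited intensity values, summarized by the authors in GenomeStudio (version not given in the sources used here), are neither normalized nor background corrected. A deposited detection p-value sets each probe against 936 negative controls. The authors also deposited their own normalized intensity values for 21765 probes, by a method that the sources used here do not give. Their scale was taken as linear, and on the log2 scale each column correlated with its own array at 0.984 or more.

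The neqc function of limma 3.58.1 (R 4.3.3) corrected background by means of the detection p-values, added an offset of 16, applied quantile normalization and took log2. Kept were 19462 of 45281 probes, those detected (detection p-value under 0.05) on 4 or more of 8 arrays. The fit used lmFit, then eBayes with a trend on intensity, with Benjamini-Hochberg adjustment over all kept probes and a threshold of 0.05. Single values were compared with two-sided exact permutation tests over nodes. In lists, a gene stands for its brightest kept probe. The procedure was tested on simulated data.

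Gene names came from the platform annotation, matched by Entrez identifier. Among the probes that the authors normalized, 18216 had 1 name, 8 had several and 3541 none, and the other 23516 probes are unnamed here. Listed genes without a named probe were not analysed here.

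Replicate numbers are shared by both groups, and no source says what a number stands for. Deviations of same-numbered nodes from their group means correlated at 0.19, 0.43, 0.25 and 0.57 for numbers 1 to 4. All were above 0.1, so a block on these numbers was tried as an alternative. Correlations of differently numbered nodes are not given here and no design states a pairing, so a pairing was not shown. The reported fit has no block, and the blocked value is given where it changes the call of a member or a count or gene that the text leads with.

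Named were all member probes, up to 4 called genes of each list in each direction, at most 2 markers of a list and the 5 genes closest in profile to a called member. Members, lists and alternatives were chosen with earlier results of these data known. Alternatives were other background corrections, scalings, filters, offsets and variance models, array weights, the block, the methods' unpaired t-test, the authors' normalized values, fat markers as a covariate and leaving out each node. Comparisons of the ligands with dendritic cell markers, and with the monocyte and macrophage markers without Fcgr1, were added after seeing the data. The number of arrays limits the precision.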

Additional observations from a re-analysis of the deposited data

Results flagged for a closer look

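For the Cxcl16 probe ILMN_2687586, vehicle node 3 stood apart from the other vehicle nodes. It read 10.54 on the log2 scale where the others read 10.93, 10.97 and 11.00, and its gap to the nearest of them took 0.843 of the range of the group. Chance flags about 1 in 20 groups of this kind. Both groups of all 7 named probes were screened, so a single flag is unremarkable. Vehicle node 3 is also the node with the highest melanocyte markers, and without it the log2 fold change of this probe was -0.76 (limma, adjusted p = 0.062). For this probe 3M-052 node 3 was also the lowest of its group (9.75), with a melanocyte marker mean of 4.97. The part of melanocyte RNA in the value of vehicle node 3 was not tested.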

How the results depend on the processing

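Most member values kept their direction and their side of the threshold, and the exceptions follow (log2 scale, limma unless named). With the replicate block Cxcr3 (0.57), the Cxcl16 probe ILMN_2687586 (-0.66) and Cxcr6 (-0.79) came past the threshold, and the block changed no other member call. Cxcr3 also passed with median centering (0.70) and array weights (0.62), and without 3M-052 node 3 (0.67), as did ILMN_2687586 without 3M-052 node 2 (-0.74). Cxcl10 missed the threshold with the methods' t-test (2.13) and with the fat cell covariate (1.43), under which Cxcl16 probe ILMN_1254723 also missed it (-0.83) and Cxcl9 changed sign (-0.21). ILMN_1254723 missed the threshold as well without vehicle node 1 (-0.88, adjusted p = 0.057) and without vehicle node 2 (-0.83, adjusted p = 0.065). Leaving out single nodes gave 0.51 to 0.67 for Cxcr3, -0.94 to -0.83 for ILMN_1254723, -0.76 to -0.51 for ILMN_2687586, -1.03 to -0.52 for Cxcr6, 0.068 to 0.45 for Cxcl9 and 1.90 to 2.46 for Cxcl10.

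Relative to its marker list, Cxcl9 changed sign with median centering (0.099) and with no background correction (0.051), and leaving out nodes gave -0.37 to 0.17. Cxcr6 changed sign with no background correction (0.24) and with normexp without detection p-values (0.015), and leaving out nodes gave -0.32 to 0.11. Leaving out nodes gave 1.47 to 2.08 for Cxcl10. In comparisons added after seeing the data, Cxcl9 turned positive relative to the dendritic cell markers (0.97) and to the monocyte and macrophage markers without Fcgr1 (0.17), and relative to the dendritic cell markers Cxcl16 missed the threshold with ILMN_1254723 (-0.19) and turned positive with ILMN_2687586 (0.041). The change of ILMN_2687586 minus that of Cxcr6 changed sign with no background correction (-0.24) and normexp (-0.013), and leaving out nodes gave -0.19 to 0.41, against -0.33 to 0.17 for ILMN_1254723 minus Cxcr6. Pairs past the threshold numbered 0, and 0 to 9 when nodes were left out.

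Probes called higher and lower were 546 and 446 as reported, 415 and 255 without the filter, 838 and 869 with array weights, 1232 and 1499 with the replicate block, 118 and 98 with the methods' t-test, 158 and 27 with the fat cell covariate, and 281 to 667 and 118 to 680 when nodes were left out. Of the 57 pathway genes, 3 were higher and 2 lower as reported, 5 and 4 with array weights, 6 and 9 with the block, 1 and 0 with the fat cell covariate, while 1 was lower without the filter, 0 with the methods' t-test and 0 to 4 when nodes were left out. The causes were not tested. Fewer nodes and the block change the degrees of freedom by construction. Cxcr6 was not detected in 1 of 4 3M-052 nodes, and ILMN_1214419 of Cxcl10 in 1 of 4 3M-052 nodes and 4 of 4 vehicle nodes, so that their values there are near background.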
